A study of Mus musculus with 18 samples.

Results

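GFP-negative bone cells were 1 of 3 sorted subsets of osterix-derived cells whose RNA was sequenced from mice at postnatal day 21, and the knockout of Pth1r in these cells is described here across all genes. The libraries were chosen by their labelled group, and 6 of the 18 libraries of the series belong to it. Of these, 3 came from mice labelled as a conditional knockout of PTH1R and 3 from mice labelled wild type, which served as controls. All 6 held bone cells sorted as negative for GFP and positive for Tm, a marker given by those letters alone. The series title places the deletion in osteoprogenitors, and all cells of both genotypes are described as derived from cells that expressed osterix (Sp7), a transcription factor that commits cells to the bone-forming lineage. The sources used here give neither the driver of the deletion, the deleted exons nor the number of animals behind a library. The remaining 12 libraries came from GFP-positive bone cells and from bone marrow stromal cells of the same genotypes. They share the fit, and so bear on the spread between replicates, the filter on low counts, the scaling and the length correction. They also show where the knockout effect differed.

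Pth1r encodes a G protein-coupled receptor with a pair of ligands, parathyroid hormone from the parathyroid glands and its local relative PTHrP. Ligand binding activates adenylyl cyclase through Gs and phospholipase C through Gq, and the resulting cyclic AMP acts through protein kinase A on transcription factors of the CREB family and on salt-inducible kinases. In bone the receptor is known for its control of osteoblast number and matrix production, of osteocyte factors such as sclerostin, and of signals to osteoclasts and blood stem cells, and in growth plate cartilage it slows the maturation of chondrocytes.

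The 3 knockout libraries held 24686089, 21964994 and 20955859 counted reads and the 3 control libraries 16561869, 20522096 and 17529792. Levels are given as CPM, read counts scaled to library size, with TMM scaling, which corrects for the reads taken by a few very abundant genes. The 10 most abundant genes took 46.8 to 55.7% of the reads in knockouts and 38.7 to 41.1% in controls. A gene without a read in a library may be present at up to 0.155 to 0.194 CPM in the knockout and 0.157 to 0.188 CPM in the control libraries, which is what 3 reads would give and covers counting error only. Mitochondrial genes held 0.246 to 0.294% of the reads in knockouts and 0.254 to 0.304% in controls. The library numbered 3 of each genotype had low levels of Y-linked genes, summed to 1.72 CPM in the knockout and 1.65 CPM in the control library. The other libraries had 90.7 and 105 CPM in knockouts and 91.4 and 84.5 CPM in controls, so each genotype held the same mix. The labelled cell type was checked against its markers. The 19 bone matrix genes summed to 496900 to 715300 CPM in knockouts and 355900 to 395600 CPM in controls, and Sp7 itself was at 276, 219 and 299 CPM in knockouts and 247, 244 and 244 CPM in controls. Chondrocyte markers were also present, at a sum of 35260 to 45680 CPM in knockouts and 43760 to 58560 CPM in controls, and were thus not near 0. In bulk RNA fewer cells of a type and less RNA per cell cannot be told apart, and this holds for every difference below.

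Pth1r (ENSMUSG00000032492.14, mm10 chr9:110722085-110747145, minus strand) was lower in the knockout and still counted in every library. It was at 1397, 1136 and 1030 CPM in the knockout libraries, against 1673, 1668 and 1910 CPM in the control libraries. The means were 1188 ± 189 CPM in knockouts and 1750 ± 138 CPM in controls (SD, n = 3 libraries each), so the knockout retained most of the counted transcript. The groups did not overlap, and the log2 fold change of knockout over control was -0.56 ± 0.13 (SE), a level 1.47 times lower (edgeR quasi-likelihood test, Benjamini-Hochberg adjusted p = 1.44e-03 over all genes tested). The counts cover every exon, so a transcript that lacks only the deleted part would still be counted. The call ended when the length trend described next was removed, at -0.28 ± 0.13, adjusted p = 0.0861, and the corrected libraries then overlapped, at 1467, 1221 and 1099 CPM in knockouts and 1453, 1468 and 1673 CPM in controls. With the same correction in a fit of only these 6 libraries it was called, at -0.30, adjusted p = 0.0467. Without correction it kept its call in all 6 repeats that left out 1 library, at -0.69 to -0.47.

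Of 15516 genes tested, 7315 were called at an adjusted p under 0.05, which is 47.1%. In the knockout 3335 genes were higher (21.5%) and 3980 lower (25.7%), and 3022 of them differed at least 2-fold. These shares are the background against which each gene group below should be read. They moved with gene length, as described next, and are a coarse measure for groups of long or short genes. The median log2 fold change over all genes was -0.07. Scaling by library totals alone moved it to -0.30 and gave 2344 higher and 5276 lower genes. Other settings turned the balance the other way. There were 3805 higher and 3360 lower genes with RLE scaling, and 3880 and 3454 with DESeq2. A fit of only these 6 libraries gave 3674 and 3393. Which direction held more genes thus depended on the processing. The 3 libraries of 1 genotype lay wholly apart from those of the other for 54.4% of the genes, with the knockout higher for 24.7% and lower for 29.7%. Most genes named below were picked by small p, so groups without overlap among them were partly fixed by that choice. The first principal component of the 6 libraries held 47.5% of the variance and separated the genotypes.

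The size and the direction of the difference followed gene length. Across genes, log2 fold change and merged exon length had a Spearman correlation of 0.397, a description with no p, since all points share the same 6 libraries. The shortest decile of genes (median 853.5 bases) had a median log2 fold change of -0.55, with 3.995% of its genes higher and 31.7% lower in the knockout. The longest decile (median 12002 bases) had a median of 0.75, with 54.45% higher and 7.216% lower. Among the gene lists below, median length was 6869 bases for hedgehog signalling, 6185 for receptor coupling, 5864.5 for the clock and 2208.5 for the respiratory chain. Over all genes tested it was 4025 bases. Measured against the mean of these 6 libraries, each of the 3 knockout libraries leaned towards long genes, with slopes of 0.125 to 0.177 per doubling of length. Each control library leaned towards short ones, at -0.160 to -0.134. With that baseline the slopes give the difference between genotypes and not which of them shifted. Length therefore moved with genotype in every library, and its part in any single result cannot be told apart from that of the genotype by these libraries alone. The trend was fitted and removed in each library as an alternative. It then left a correlation of 0.011 and 6219 called genes (40.1%), 2894 higher (18.7%) and 3325 lower (21.4%). Against the longest annotated transcript as another measure of length, the correlation was 0.444 before and 0.106 after this removal, so part of the trend by that measure was left, and 31.27% of its longest decile were still higher and 15.54% lower. Of the 7315 calls, 5058 remained in the same direction (69.15%), 15 turned and the other 2242 were lost. Values after this removal are called length-corrected below.

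**Figure D1:**
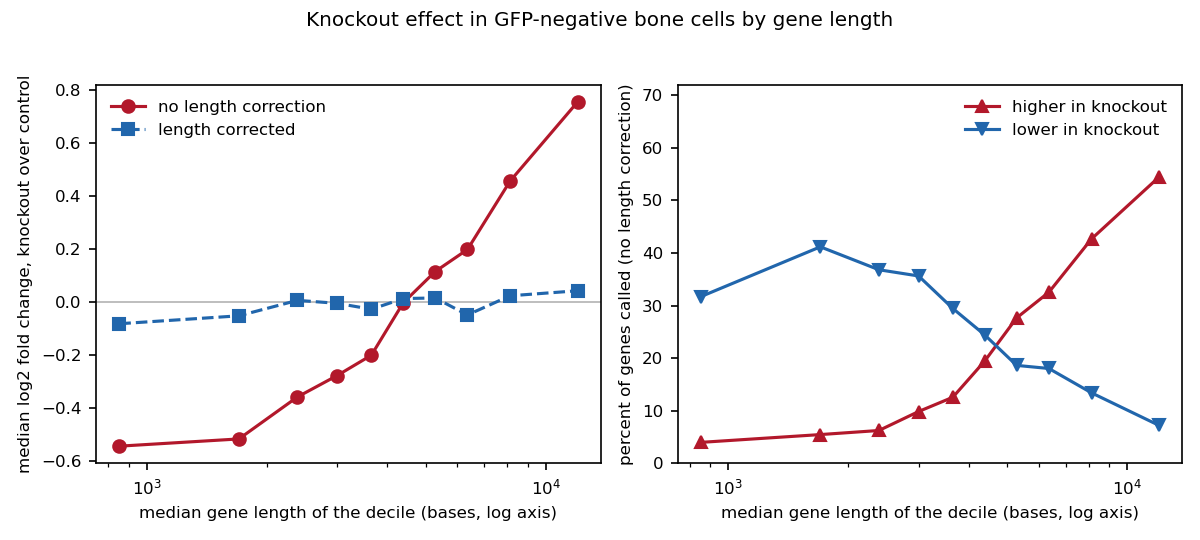
Genes in deciles of merged exon length (x axis, bases, log axis). The left panel gives the median log2 fold change of knockout over control without and with length correction, from -0.55 to 0.75 without it, and the right panel the percent of genes called higher and lower in the knockout without the correction.

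Genes that carry the signal of the receptor were higher in the knockout or did not pass the test. Of the 19 tested genes of receptor coupling (G proteins, adenylyl cyclases, phospholipases, protein kinase A subunits and CREB factors), 11 rose and 0 fell, with a median log2 fold change of 0.72. After length correction 10 were higher and 1 lower, with a median of 0.39. Adcy3, an adenylyl cyclase, was at 57.9, 67.0 and 65.7 CPM in the knockout libraries, against 27.8, 28.3 and 28.2 CPM in the control libraries (log2 fold change 1.18 ± 0.14, adjusted p = 1.74e-06). Adcy6, another adenylyl cyclase, was less abundant, at 6.82, 8.55 and 10.1 CPM in knockouts and 3.20, 1.21 and 1.14 CPM in controls (log2 fold change 2.22 ± 0.35, adjusted p = 3.86e-05). Prkacb, a catalytic subunit of protein kinase A (0.77 ± 0.11, adjusted p = 1.62e-05), and Gnaq, the alpha subunit of Gq (0.81 ± 0.15, adjusted p = 1.66e-04), were also higher in every knockout library than in any control. After correction on the longest transcript Gnaq was at 0.26 and no longer called, and Prkacb was not called after length correction in the fit of only the 6 libraries (0.28) or with the replicate block (0.29). Creb1, which binds the cyclic AMP response element, rose by 0.81 ± 0.15, adjusted p = 2.02e-04, and its call ended after length correction (0.06 ± 0.15, adjusted p = 0.774).

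Target genes of cyclic AMP and parathyroid hormone did not fall as a group. Of 23 tested, 10 rose and 2 fell, with a median log2 fold change of 0.63 (9 higher and 1 lower, median 0.36, after length correction). Values ranged from -1.65 to 2.85. The members described here, and those whose promoters are printed below, are all among the 10 that rose. No values are given for the 2 that fell. They include Pde4b, which ranks 6 by p in the list, ahead of Nr4a3, Tnfsf11 and Nr4a1. The median was 0.41 without knockout library 3, 0.28 without control library 2 and 0.39 with library totals alone, with 9 higher and 2 lower in each of these 3. Vdr, the vitamin D receptor (mm10 chr15:97854425-97910630, minus strand), was at 302, 326 and 224 CPM in the knockout libraries, against 88.3, 94.8 and 94.6 CPM in the control libraries. The groups stood well apart (log2 fold change 1.62 ± 0.11, adjusted p = 5.70e-09), and the log2 fold change was larger than that of 0.29 ± 0.11 in marrow cells (difference 1.33 ± 0.16, adjusted p = 4.03e-05). Sik1, a salt-inducible kinase that is itself induced by cyclic AMP, was at 11.0, 20.1 and 27.6 CPM in the knockout libraries, against 2.70, 2.99 and 3.05 CPM in the control libraries (log2 fold change 2.73 ± 0.37, adjusted p = 9.16e-06). Every knockout library exceeded every control library, and the knockout libraries differed among themselves more than the controls did. Per1, a clock gene with a cyclic AMP response, was at 25.0, 29.6 and 24.7 CPM in knockouts and 8.34, 6.61 and 7.61 CPM in controls (log2 fold change 1.82 ± 0.18, adjusted p = 1.53e-07). Lif, a cytokine of the interleukin-6 family, was low in both genotypes, at 2.89, 2.37 and 3.75 CPM in knockouts and 0.376, 0.524 and 0.299 CPM in controls (log2 fold change 2.85 ± 0.60, adjusted p = 6.76e-04). Fosl2, an AP-1 factor, rose by 1.18 ± 0.21, adjusted p = 1.47e-04, and its call ended only when the longest transcript was used for the correction (0.45). Tnfsf11, which encodes the osteoclast-inducing ligand RANKL and was singled out after its values were seen, was at 26.2, 39.8 and 46.9 CPM in knockouts and 22.3, 17.1 and 18.1 CPM in controls (log2 fold change 0.97 ± 0.25, adjusted p = 0.00376).

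Promoters are shown for Vdr, Per1 and Fosl2, the list members of smallest p with a sequence here, and for Nr4a1 and Nr4a3. Sik1 has no promoter in the set used. The response element of cyclic AMP has the letters TGACGTCA or the shorter TGACG. Nr4a1 and Nr4a3 are nuclear receptors of the early cyclic AMP response and were added after the values of the list were seen. Nr4a1 was at 350.2, 396 and 378 CPM in knockouts and 141, 149 and 178 CPM in controls (log2 fold change 1.26 ± 0.46, adjusted p = 0.0369). Nr4a3 was at 3.87, 3.66 and 2.26 CPM in knockouts and 1.44, 0.315 and 0.359 CPM in controls (log2 fold change 2.28 ± 0.54, adjusted p = 0.00185). The sequences are from RefSeq (GRCm38.p6), run from 250 bases before to 50 bases after the start site on the gene's strand, and have TGACG on either strand in capitals. Vdr is at chr15:97908247-97908546, minus strand, the 2 promoters of Per1 are at chr11:69098699-69098998, plus strand and chr11:69099902-69100201, plus strand, Fosl2 is at chr5:32136222-32136521, plus strand, Nr4a3 is at chr4:48045055-48045354, plus strand and Nr4a1 is at chr15:101266596-101266895, plus strand.
Vdr: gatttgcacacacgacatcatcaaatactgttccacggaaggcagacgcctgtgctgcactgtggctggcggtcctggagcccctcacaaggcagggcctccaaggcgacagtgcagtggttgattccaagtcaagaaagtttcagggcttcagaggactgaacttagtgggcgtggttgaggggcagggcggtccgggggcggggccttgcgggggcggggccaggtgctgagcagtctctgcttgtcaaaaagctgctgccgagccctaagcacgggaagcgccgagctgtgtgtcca
Per1, promoter 1: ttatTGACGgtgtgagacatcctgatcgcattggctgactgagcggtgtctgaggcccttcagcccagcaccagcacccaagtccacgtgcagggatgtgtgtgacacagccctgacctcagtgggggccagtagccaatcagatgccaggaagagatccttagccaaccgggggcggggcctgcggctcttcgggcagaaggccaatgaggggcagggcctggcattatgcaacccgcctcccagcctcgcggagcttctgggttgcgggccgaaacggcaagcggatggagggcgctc
Per1, promoter 2: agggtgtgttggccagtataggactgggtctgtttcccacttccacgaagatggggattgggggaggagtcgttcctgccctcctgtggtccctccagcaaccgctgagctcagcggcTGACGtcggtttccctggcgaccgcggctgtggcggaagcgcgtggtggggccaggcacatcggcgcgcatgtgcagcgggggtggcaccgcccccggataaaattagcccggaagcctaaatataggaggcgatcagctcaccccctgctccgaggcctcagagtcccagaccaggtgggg
Fosl2: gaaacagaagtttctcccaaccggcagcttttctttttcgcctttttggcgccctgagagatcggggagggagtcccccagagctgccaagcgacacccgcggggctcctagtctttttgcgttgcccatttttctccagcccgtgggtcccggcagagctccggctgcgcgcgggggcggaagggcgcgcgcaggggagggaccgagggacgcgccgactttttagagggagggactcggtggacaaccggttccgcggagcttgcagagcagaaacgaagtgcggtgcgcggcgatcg
Nr4a3: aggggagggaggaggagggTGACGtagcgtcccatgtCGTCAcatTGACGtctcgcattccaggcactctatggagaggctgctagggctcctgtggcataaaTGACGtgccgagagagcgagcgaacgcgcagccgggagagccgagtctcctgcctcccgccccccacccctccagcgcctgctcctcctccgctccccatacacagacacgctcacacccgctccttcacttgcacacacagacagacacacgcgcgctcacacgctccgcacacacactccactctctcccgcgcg
Nr4a1: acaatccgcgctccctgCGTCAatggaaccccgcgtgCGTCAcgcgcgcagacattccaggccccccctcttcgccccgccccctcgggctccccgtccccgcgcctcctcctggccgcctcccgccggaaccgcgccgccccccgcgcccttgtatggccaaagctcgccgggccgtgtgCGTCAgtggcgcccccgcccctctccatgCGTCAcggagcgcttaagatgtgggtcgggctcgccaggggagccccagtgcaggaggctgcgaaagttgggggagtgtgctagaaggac

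Vdr and Fosl2 have no TGACG in this window, each Per1 promoter has 1, and the Nr4a3 and Nr4a1 promoters have 4 each. Over the list, 14 of 26 promoters hold TGACG and 1 holds TGACGTCA, in which TGACG is contained. Among promoters of all genes tested, 29.2% hold TGACG and 2.87% hold TGACGTCA. Of the 9 promoters of list genes that were higher in the knockout, 4 hold TGACG and 0 hold TGACGTCA. These 4 are the promoters of Per1, Nr4a3 and Nr4a1 shown above. List promoters not shown include those of Lif, Tnfsf11 and Pde4d, without TGACG, of Nr4a2, with 4 matches, and of Dusp1, the 1 with TGACGTCA. A match is a description of the letters, and nothing follows from its absence in this window.

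Genes of marrow stroma, the reticular cells that support blood formation and express Lepr and Cxcl12, were higher in knockout bone cells. Of 22 tested, 16 rose and 0 fell, with a median log2 fold change of 1.0. The counts were 17 and 0 after length correction, and 12 and 2 with library totals alone. Lepr, the leptin receptor (mm10 chr4:101717404-101815352, plus strand), was at 350.5, 373 and 368 CPM in the knockout libraries, against 107, 90.4 and 78.3 CPM in the control libraries, a difference far beyond the spread within either genotype (log2 fold change 1.99 ± 0.16, adjusted p = 1.62e-08). Pdgfra and Pdgfrb, receptors for platelet-derived growth factors on mesenchymal cells, rose by 2.13 ± 0.13, adjusted p = 1.21e-09, and by 1.90 ± 0.15, adjusted p = 2.22e-08. Pdgfra was at 224, 211 and 219 CPM in knockouts and 46.3, 56.5 and 46.5 CPM in controls. Igfbp5, a secreted binding protein of insulin-like growth factors, was at 523, 581 and 638 CPM in the knockout libraries, against 125, 138 and 108 CPM in the control libraries (log2 fold change 2.23 ± 0.18, adjusted p = 3.03e-08). Grem1, a secreted antagonist of bone morphogenetic proteins, was low in controls and rose most among these 5, at 14.7, 15.5 and 12.3 CPM in knockouts and 1.88, 1.73 and 1.14 CPM in controls (log2 fold change 3.16 ± 0.27, adjusted p = 4.36e-08). Cxcl12, a chemokine that anchors blood stem cells in marrow and was singled out after its values were seen, was at 3204, 2954 and 3238 CPM in the knockout libraries, against 1256, 1273 and 903 CPM in the control libraries (log2 fold change 1.45 ± 0.17, adjusted p = 1.11e-06).

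Factors that bone and stromal cells send to blood stem cells and osteoclasts were higher on balance. Of 15 tested, 7 rose and 2 fell, with a median of 0.39 (0.17 with library totals alone, 0.84 after length correction). Angpt1, a ligand that keeps blood stem cells quiescent, was at 45.5, 43.7 and 44.0 CPM in the knockout libraries, against 9.47, 10.5 and 8.68 CPM in the control libraries (log2 fold change 2.21 ± 0.16, adjusted p = 9.45e-09). Kitl, stem cell factor, was at 101, 133 and 146 CPM in the knockout libraries, against 35.8, 29.3 and 24.8 CPM in the control libraries (log2 fold change 2.08 ± 0.23, adjusted p = 1.60e-06). Csf1, the growth factor of macrophages and osteoclast precursors, was at 192, 221 and 189.8 CPM in knockouts and 80.8, 72.1 and 65.8 CPM in controls (log2 fold change 1.46 ± 0.13, adjusted p = 5.25e-08). Jag1, a Notch ligand, rose by 2.65 ± 0.34, adjusted p = 7.70e-06. Il34, another ligand of the Csf1 receptor, rose by 1.43 ± 0.22, adjusted p = 2.45e-05. None of these 5 genes had a control library that reached its lowest knockout library.

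**Figure D2:**
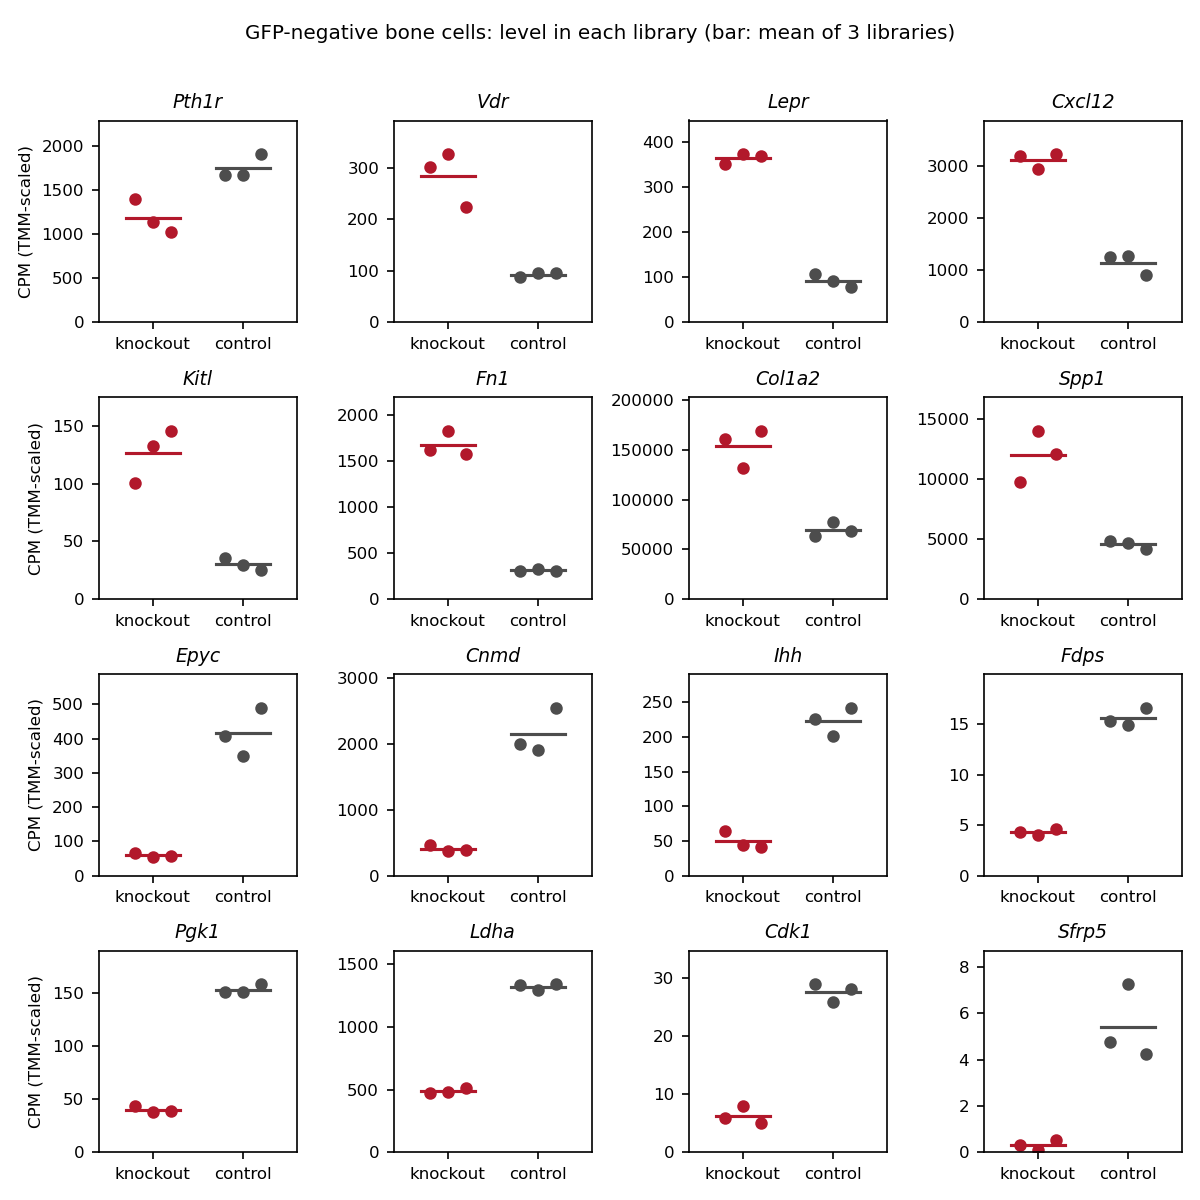
Levels of 16 genes in each library of GFP-negative bone cells (y axes, TMM-scaled CPM from 0), knockout left and control right, with bars at the mean of 3 libraries. Cxcl12, Col1a2, Spp1 and Ihh were added after their values were seen. The groups overlap in none of the 16 panels, which the choice of genes largely fixed, and do not overlap for 54.4% of all genes tested.

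Genes of the adipocyte programme were mostly higher. Of 25 tested, 16 rose and 2 fell, with a median of 0.94 (16 and 1 after length correction). Cebpa, a transcription factor of fat cell differentiation, was at 31.8, 35.5 and 47.9 CPM in the knockout libraries, against 11.7, 15.6 and 9.58 CPM in the control libraries (log2 fold change 1.63 ± 0.20, adjusted p = 2.14e-06). Apoe, a lipid carrier, was at 299.7, 275 and 273 CPM in knockouts and 95.8, 96.1 and 85.7 CPM in controls (log2 fold change 1.61 ± 0.12, adjusted p = 7.84e-09). Lpl, lipoprotein lipase, was at 633, 474 and 482 CPM in knockouts and 165, 179 and 167 CPM in controls (log2 fold change 1.64 ± 0.16, adjusted p = 1.33e-07). Fasn, fatty acid synthase, rose by 1.65 ± 0.16, adjusted p = 1.18e-07. Scd2, a desaturase of fatty acids, fell, at 167, 138 and 174 CPM in knockouts and 292, 298 and 313 CPM in controls (log2 fold change -0.92 ± 0.10, adjusted p = 4.82e-07). The difference in Scd2 was the opposite of that in GFP-positive bone cells, where the log2 fold change was 0.52 ± 0.10 (difference -1.43 ± 0.14, adjusted p = 4.87e-06).

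Bone matrix genes were higher on balance, with several of them among the most abundant transcripts of these cells. Of 19 tested, 10 rose and 2 fell, with a median log2 fold change of 0.66 (8 and 1, median 0.45, after length correction, and 9 and 4, median 0.40, with library totals alone). Fn1, fibronectin (mm10 chr1:71585520-71653200, minus strand), was at 1617, 1825 and 1573 CPM in the knockout libraries, against 306, 323 and 308 CPM in the control libraries (log2 fold change 2.42 ± 0.18, adjusted p = 1.21e-08). Tnc, tenascin C, was at 2481, 2948 and 2481 CPM in the knockout libraries, against 712, 791 and 656 CPM in the control libraries (log2 fold change 1.87 ± 0.19, adjusted p = 2.77e-07). Both are glycoproteins of the matrix, and neither had overlapping groups. Col22a1, a collagen of tissue junctions, was at 642, 620.3 and 692 CPM in knockouts and 102, 124 and 119 CPM in controls (log2 fold change 2.50 ± 0.22, adjusted p = 1.44e-07). Col5a1 and Col5a2, chains of the collagen that seeds type I fibrils, rose by 1.86 ± 0.18, adjusted p = 1.31e-07, and by 1.36 ± 0.17, adjusted p = 3.82e-06. The chains of type I collagen, Bglap and Spp1 were singled out after their values were seen. Col1a2 was at 161200, 131500 and 169100 CPM in the knockout libraries, against 63140, 77610 and 67870 CPM in the control libraries (log2 fold change 1.15 ± 0.19, adjusted p = 6.95e-05, corrected 0.45 ± 0.18, adjusted p = 0.0563). Col1a1, the most abundant gene named here, was at 358700, 287700 and 454100 CPM in the knockout libraries, against 237000, 243600 and 214500 CPM in the control libraries, and its call ended after length correction (log2 fold change 0.66 ± 0.21, adjusted p = 0.0130, corrected 0.39 ± 0.20, adjusted p = 0.136). Bglap, osteocalcin, was at 5585, 3838 and 7029 CPM in knockouts and 5231, 7865 and 6077 CPM in controls, with overlapping groups (adjusted p = 0.533). Spp1, osteopontin, was at 9771, 13990 and 12070 CPM in knockouts and 4836, 4638 and 4116 CPM in controls (log2 fold change 1.40 ± 0.26, adjusted p = 2.61e-04).

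Counts of osteoblast transcription factors moved with the processing. Of 17 tested, 5 rose and 0 fell, with a median of 0.11. After length correction 9 were higher and 2 lower, with a median of 0.38, and with library totals alone 4 were higher and 3 lower, with a median of -0.14. Runx2, the factor required for osteoblast formation, was at 84.7, 90.8 and 105 CPM in the knockout libraries, against 42.8, 58.9 and 52.3 CPM in the control libraries (log2 fold change 0.86 ± 0.12, adjusted p = 9.47e-06). Zfp521, a zinc finger protein that binds Runx2, was at 56.7, 61.1 and 52.8 CPM in knockouts and 20.2, 13.6 and 17.0 CPM in controls (log2 fold change 1.75 ± 0.17, adjusted p = 1.15e-07). Alx4, a homeodomain factor of skull and limb, was low in both genotypes and rose by 1.39 ± 0.38, adjusted p = 0.00523. With the longest transcript as the measure of length, the values of Runx2 and Alx4 were 0.15 and 0.61, and neither was called. Twist1, a factor that restrains Runx2, rose by 0.42 ± 0.13, adjusted p = 0.00991, and lost its call without control library 1 (0.33) and with library totals alone (0.18).

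Genes of mineralisation and osteocytes moved in both directions. Of 12 mineralisation genes 4 rose and 1 fell, with a median of -0.11. The split depended on the processing, with 2 higher and 5 lower with library totals alone (median -0.36) and 2 and 2 after length correction (median 0.01). Phex, a protease of phosphate balance made by osteoblasts and osteocytes, was at 118, 122 and 114 CPM in the knockout libraries, against 43.7, 44.4 and 45.4 CPM in the control libraries (log2 fold change 1.41 ± 0.13, adjusted p = 1.10e-07). The rise was smaller than in GFP-positive bone cells, by -1.43 ± 0.19, adjusted p = 1.24e-04. Car12, a carbonic anhydrase, fell, at 43.4, 34.5 and 27.8 CPM in knockouts and 146, 117 and 145 CPM in controls (log2 fold change -1.95 ± 0.24, adjusted p = 5.41e-06). Enpp1, which makes the mineralisation inhibitor pyrophosphate, rose by 0.78 ± 0.15, adjusted p = 3.15e-04, and its call ended after length correction (0.20 ± 0.15, adjusted p = 0.336). Of 13 osteocyte genes 3 rose and 4 fell, with a median of 0.22 (-0.02 with library totals alone; 5 higher and 4 lower after length correction). Sost, the Wnt inhibitor sclerostin, was low in both genotypes and near the floor in knockouts. It was at 0.310, 0.0515 and 0.129 CPM in knockouts and 0.941, 1.99 and 0.898 CPM in controls (log2 fold change -2.94 ± 0.60, adjusted p = 4.56e-04). Dkk1, another secreted Wnt inhibitor, was at 7.75, 4.63 and 7.49 CPM in the knockout libraries, against 18.4, 21.1 and 20.4 CPM in the control libraries (log2 fold change -1.60 ± 0.22, adjusted p = 9.12e-06). Both inhibitors were lower in every knockout library than in any control. Pdpn, podoplanin of early osteocytes, was lower (-1.02 ± 0.16, adjusted p = 4.53e-05), as was Fbln7, a fibulin (-0.94 ± 0.13, adjusted p = 5.83e-06). Ptprz1, a receptor phosphatase, rose by 1.72 ± 0.25, adjusted p = 2.73e-05.

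Chondrocyte genes were lower in knockout bone cells. Of 25 tested, 14 fell and 5 rose, with a median log2 fold change of -0.46 (15 lower and 3 higher, median -0.68, after length correction, and 16 and 2 with library totals alone). Epyc, a small proteoglycan of growth plate cartilage (mm10 chr10:97644068-97682454, plus strand), was at 66.2, 54.6 and 56.6 CPM in the knockout libraries, against 408, 349 and 491 CPM in the control libraries (log2 fold change -2.81 ± 0.13, adjusted p = 6.45e-11). Cnmd, chondromodulin of avascular cartilage, was at 458, 374 and 395 CPM in the knockout libraries, against 2000, 1907 and 2552 CPM in the control libraries (log2 fold change -2.40 ± 0.14, adjusted p = 6.78e-10). Ucma, a matrix protein of chondrocytes, was at 9.04, 5.87 and 8.72 CPM in knockouts and 68.5, 59.7 and 74.5 CPM in controls (log2 fold change -3.11 ± 0.16, adjusted p = 2.49e-10). For all 3 the knockout libraries lay far below the lowest control library. Matn3, a cartilage matrilin, was at 575, 425 and 542 CPM in knockouts and 2180, 2129 and 2565 CPM in controls (log2 fold change -2.16 ± 0.13, adjusted p = 1.33e-09). Hapln1, the link protein of aggrecan, was at 685, 591 and 629 CPM in knockouts and 1714, 1707 and 2305 CPM in controls (log2 fold change -1.59 ± 0.12, adjusted p = 1.55e-08). The members of the list did not all fall. Values of 4 further genes are given after they were seen. Col2a1, the main collagen of cartilage, was at 25230, 19730 and 26850 CPM in knockouts and 23620, 27340 and 32750 CPM in controls (log2 fold change -0.22 ± 0.15, adjusted p = 0.260; -0.73 ± 0.16, adjusted p = 0.00109 after length correction), so its groups overlapped. Acan, aggrecan, was at 677, 599.6 and 614 CPM in knockouts and 540.3, 527 and 662 CPM in controls (adjusted p = 0.470). Ihh, the hedgehog ligand of prehypertrophic chondrocytes, was at 64.9, 43.9 and 42.0 CPM in the knockout libraries, against 226, 201 and 243 CPM in the control libraries (log2 fold change -2.15 ± 0.19, adjusted p = 1.16e-07). Col10a1, the collagen of hypertrophic chondrocytes, was higher in the knockout, at 1552, 1193 and 1275 CPM in knockouts and 775, 849.7 and 958 CPM in controls (log2 fold change 0.64 ± 0.23, adjusted p = 0.0331).

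Genes of fibroblasts, periosteum and tendon were split. Of 23 tested, 7 rose and 7 fell, with a median of 0.18. There were 4 higher and 9 lower with library totals alone (median -0.05), 7 and 4 with DESeq2, and 9 and 7 after length correction (median 0.40), and the median was -0.008 without knockout library 1. Col12a1 and Col6a3, collagens of loose and dense connective tissue, rose by 1.25 ± 0.12, adjusted p = 1.31e-07, and by 1.61 ± 0.17, adjusted p = 3.66e-07. Col3a1, a fibrillar collagen of soft tissue, was at 20700, 18390 and 16970 CPM in knockouts and 8916, 8201 and 8024 CPM in controls (log2 fold change 1.16 ± 0.20, adjusted p = 1.26e-04). Tnmd, tenomodulin of tendon, fell, at 17.9, 18.4 and 9.36 CPM in knockouts and 38.7, 49.5 and 37.3 CPM in controls (log2 fold change -1.45 ± 0.28, adjusted p = 2.86e-04). Dpt, dermatopontin, was at 9.19, 2.32 and 3.55 CPM in knockouts and 12.8, 19 and 14.9 CPM in controls (log2 fold change -1.62 ± 0.30, adjusted p = 1.22e-04), and at -2.44 without knockout library 1, the highest of the 3 knockout libraries. Of 15 contractile genes 3 rose and 3 fell, with a median of -0.15 (1 and 5 with library totals alone, median -0.38 without control library 1). Notch3, a receptor of mural cells, was at 52.3, 56.6 and 75.9 CPM in knockouts and 9.72, 8.08 and 8.21 CPM in controls (log2 fold change 2.83 ± 0.31, adjusted p = 2.19e-06). Actg2, a smooth muscle actin, was lower (-2.04 ± 0.35, adjusted p = 1.0e-04). Cald1, caldesmon, was higher by 0.48 ± 0.11, adjusted p = 0.00158, and turned to -0.20 ± 0.10, adjusted p = 0.135 after length correction.

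Matrix proteases and their inhibitors were mostly higher, and enzymes of collagen processing mostly lower. Of 16 proteases and inhibitors 10 rose and 3 fell, with a median of 0.56 (6 and 4 with library totals alone). Adamts1, a protease of aggrecan and versican, was at 380.4, 456 and 413 CPM in the knockout libraries, against 122, 129 and 130.4 CPM in the control libraries (log2 fold change 1.71 ± 0.19, adjusted p = 1.44e-06). Adamts2, which cleaves the amino end of procollagens, was at 912, 823 and 954 CPM in knockouts and 361, 443 and 394 CPM in controls (log2 fold change 1.17 ± 0.12, adjusted p = 2.57e-07). Timp4, a metalloprotease inhibitor, was near the floor in 2 controls, at 14.5, 13.8 and 11.9 CPM in knockouts and 1.88, 0.262 and 0.180 CPM in controls (log2 fold change 4.18 ± 0.43, adjusted p = 5.54e-07), and its relatives Timp2 and Timp3 rose by 0.68 ± 0.11, adjusted p = 4.10e-05, and by 1.42 ± 0.30, adjusted p = 0.00128. Of 20 genes of collagen processing 11 fell and 5 rose, with a median of -0.33 (8 lower and 5 higher, median -0.02, after length correction, and 11 and 2 with library totals alone). P4ha2 and P4ha1, subunits of prolyl 4-hydroxylase, fell together. P4ha2 was at 194, 157 and 165 CPM in the knockout libraries, against 526, 497 and 544 CPM in the control libraries (log2 fold change -1.60 ± 0.10, adjusted p = 1.33e-09), and P4ha1 at 284, 261 and 272 CPM in knockouts and 522, 585 and 585 CPM in controls (log2 fold change -1.05 ± 0.09, adjusted p = 5.60e-08). Serpinh1, the collagen chaperone HSP47, was at 5685, 4374 and 4421 CPM in the knockout libraries, against 9759, 9756 and 9174 CPM in the control libraries (log2 fold change -0.99 ± 0.12, adjusted p = 1.53e-06). Plod3, a lysyl hydroxylase, and Pcolce2, an enhancer of procollagen C-proteinase, changed by -0.87 ± 0.10, adjusted p = 7.31e-07, and -1.41 ± 0.13, adjusted p = 1.17e-07.

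Receptors and mediators of several signalling pathways were higher. In the FGF list 8 of 12 rose and 0 fell, with a median of 1.40. Fgfr2, a receptor of osteoprogenitors, was at 549, 587 and 368 CPM in the knockout libraries, against 146, 130.2 and 129.8 CPM in the control libraries (log2 fold change 1.89 ± 0.20, adjusted p = 7.88e-07). Fgf7, a ligand made by mesenchymal cells, was at 26.6, 32.4 and 30.6 CPM in knockouts and 12.3, 10.3 and 11.6 CPM in controls (log2 fold change 1.39 ± 0.20, adjusted p = 1.86e-05). Spry4 and Spry1, feedback inhibitors of receptor tyrosine kinases, rose by 1.51 ± 0.24, adjusted p = 4.37e-05, and by 1.41 ± 0.24, adjusted p = 1.65e-04. Fgfr1 rose by 0.78 ± 0.10, adjusted p = 3.49e-06, and its call ended after length correction (0.22 ± 0.10, adjusted p = 0.0880). In the BMP and TGF-beta list 13 of 22 rose and 2 fell, with a median of 0.67. Tgfbr3, the coreceptor betaglycan, was at 119.7, 118 and 102 CPM in the knockout libraries, against 11.3, 13.5 and 11.1 CPM in the control libraries (log2 fold change 3.24 ± 0.29, adjusted p = 2.22e-07), the largest change among the 5 genes of this list described by the naming rule. Fst, follistatin, an activin antagonist, was at 85.2, 100.2 and 77.6 CPM in knockouts and 27.3, 23.5 and 20.2 CPM in controls (log2 fold change 1.89 ± 0.16, adjusted p = 4.17e-08). Ltbp1 and Ltbp2, latent TGF-beta binding proteins, rose by 1.48 ± 0.13, adjusted p = 5.76e-08, and by 1.95 ± 0.19, adjusted p = 2.46e-07.

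In the Wnt list of coreceptors and targets 9 of 18 rose and 0 fell, with a median of 0.66 (7 higher and 0 lower, median 0.41, after length correction). Lrp5, the Wnt coreceptor of bone mass, was at 44.8, 41.9 and 52.0 CPM in the knockout libraries, against 8.47, 8.13 and 7.49 CPM in the control libraries (log2 fold change 2.52 ± 0.17, adjusted p = 3.36e-09). Fzd1 and Fzd4, Wnt receptors, rose by 1.47 ± 0.22, adjusted p = 3.73e-05, and by 1.67 ± 0.26, adjusted p = 4.10e-05, and Lgr4, a receptor for R-spondins, by 1.29 ± 0.14, adjusted p = 4.12e-07. Lrp6 rose by 1.15 ± 0.20, adjusted p = 1.25e-04, and its call ended after length correction (0.40 ± 0.20, adjusted p = 0.117). Among Wnt antagonists 4 of 11 rose and 2 fell, with a median of 0.13. The number higher was 2 without knockout library 1, 1 without control library 2, 2 with library totals alone (median -0.11) and 6 after length correction (median 0.49). Sfrp5, a secreted decoy of Wnt ligands (mm10 chr19:42197971-42202252, minus strand), was at 0.310, 0.103 and 0.516 CPM in the knockout libraries, against 4.77, 7.24 and 4.25 CPM in the control libraries (log2 fold change -4.19 ± 0.50, adjusted p = 9.36e-07). All knockout libraries were within a few reads of the floor. Frzb, a related decoy of cartilage, was at 47.0, 38.9 and 51.8 CPM in knockouts and 106, 111 and 104 CPM in controls (log2 fold change -1.22 ± 0.15, adjusted p = 1.53e-06), and Kremen1, a receptor for Dkk1, rose by 1.83 ± 0.15, adjusted p = 2.56e-08.

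In the hedgehog list 8 of 11 rose and 0 fell (6 and 0 after length correction). Boc, a coreceptor of hedgehog ligands, was at 102, 101 and 91.4 CPM in knockouts and 30.7, 41.9 and 34.8 CPM in controls (log2 fold change 1.45 ± 0.17, adjusted p = 1.14e-06), and Gli3, a transcription factor of the pathway, at 16.4, 18.4 and 18.1 CPM in knockouts and 2.57, 7.39 and 5.15 CPM in controls (log2 fold change 1.78 ± 0.28, adjusted p = 4.14e-05). Ptch1, the receptor and a target of the pathway, rose by 1.13 ± 0.21, adjusted p = 1.52e-04, and its call ended after length correction (0.37 ± 0.19, adjusted p = 0.138). In the Notch list 4 of 13 rose and 1 fell. Notch1 and Notch2, receptors, rose by 2.44 ± 0.38, adjusted p = 3.00e-05, and by 1.99 ± 0.33, adjusted p = 6.79e-05. In the list of the insulin-like growth factor system 8 of 16 rose and 1 fell, with a median of 0.77 (7 and 4 with library totals alone). Pappa and Pappa2, proteases that free insulin-like growth factors from their binding proteins, both rose. Pappa was at 21.9, 27.6 and 24.5 CPM in the knockout libraries, against 5.89, 4.20 and 5.39 CPM in the control libraries (log2 fold change 2.27 ± 0.19, adjusted p = 3.92e-08), and Pappa2, with 3 to 7 reads in each control library, at 7.08, 11.1 and 5.10 CPM in knockouts and 0.188, 0.157 and 0.419 CPM in controls (log2 fold change 4.94 ± 0.60, adjusted p = 2.70e-06). Irs2, an adaptor of the insulin and IGF receptors, rose by 1.30 ± 0.16, adjusted p = 2.96e-06, and Htra1, a secreted serine protease, fell, at 254, 248 and 251 CPM in knockouts and 466, 463 and 456 CPM in controls (log2 fold change -0.88 ± 0.11, adjusted p = 3.06e-06).

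Glycolytic genes were lower in the knockout. Of 18 tested, 14 fell and 2 rose, with a median log2 fold change of -1.35 (14 lower and 1 higher, median -1.29, after length correction). Ldha, lactate dehydrogenase (mm10 chr7:46841475-46855627, plus strand), was at 476, 482 and 510.0 CPM in the knockout libraries, against 1330, 1291 and 1339 CPM in the control libraries (log2 fold change -1.43 ± 0.09, adjusted p = 1.63e-09). Pgk1, phosphoglycerate kinase, was at 44.0, 38.3 and 38.5 CPM in the knockout libraries, against 151, 150.5 and 158 CPM in the control libraries (log2 fold change -1.93 ± 0.10, adjusted p = 3.57e-10). Slc16a3, the lactate exporter MCT4, was at 9.55, 8.39 and 11.8 CPM in the knockout libraries, against 83.7, 79.9 and 76.5 CPM in the control libraries (log2 fold change -3.02 ± 0.19, adjusted p = 1.63e-09). The groups of all 3 were far apart and tight. Pgam1 and Tpi1, enzymes of the lower and upper pathway, changed by -1.77 ± 0.09, adjusted p = 2.99e-10, and -1.57 ± 0.10, adjusted p = 2.47e-09. Of 20 genes of the hypoxia response 7 fell and 5 rose, with a median of -0.42, but 11 fell with library totals alone and 5 with DESeq2, with 5 higher in both. Bnip3, a mitophagy receptor, was at 36.4, 30.7 and 29.3 CPM in knockouts and 129.7, 101 and 124 CPM in controls (log2 fold change -1.88 ± 0.14, adjusted p = 7.66e-09), and Ndufa4l2, a mitochondrial protein induced by low oxygen, at 22.2, 19.2 and 30.9 CPM in knockouts and 122, 113 and 130.2 CPM in controls (log2 fold change -2.35 ± 0.18, adjusted p = 2.35e-08). Higd1a and Fam162a, also mitochondrial, changed by -2.01 ± 0.11, adjusted p = 2.77e-10, and -1.84 ± 0.10, adjusted p = 3.05e-10. Epas1, which encodes the oxygen-sensing factor HIF-2 alpha, rose instead, at 67.0, 91.5 and 69.5 CPM in the knockout libraries, against 10.2, 15.4 and 10.7 CPM in the control libraries (log2 fold change 2.64 ± 0.16, adjusted p = 1.61e-09).

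Respiratory chain genes were lower without exception among those tested. All 26 fell, with a median of -0.87, and 23 fell after length correction, with a median of -0.55. Sdhd, a subunit of complex II, was at 98.9, 90.4 and 86.9 CPM in the knockout libraries, against 199.8, 186 and 188 CPM in the control libraries (log2 fold change -1.05 ± 0.08, adjusted p = 1.60e-08), and Ndufa9, of complex I, at 56.3, 48.4 and 53.5 CPM in knockouts and 118, 104 and 115 CPM in controls (log2 fold change -1.09 ± 0.09, adjusted p = 2.59e-08). Uqcrc2, of complex III, was at 63.4, 60.8 and 60.9 CPM in knockouts and 109.8, 110.3 and 112 CPM in controls (log2 fold change -0.85 ± 0.08, adjusted p = 7.99e-08). Ribosomal protein genes, which are short (median 1800 bases against 4025 over all genes), did not keep their direction. Of 26 tested, 20 fell, with a median of -0.47, but after length correction 7 were lower and 2 higher, with a median of 0.01. Many ribosomal, glycolytic and respiratory genes have near-identical processed pseudogenes, and the treatment of reads with several matches in the authors' counting is not known here, so the levels of these genes are uncertain.

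Cholesterol synthesis genes were lower in the knockout. Of 20 tested, 17 fell and 0 rose, with a median of -1.02, and the counts were the same after length correction, at a median of -0.82. Fdps, farnesyl diphosphate synthase, was at 4.29, 4.02 and 4.65 CPM in the knockout libraries, against 15.4, 14.9 and 16.6 CPM in the control libraries (log2 fold change -1.86 ± 0.16, adjusted p = 4.60e-08). Lss, lanosterol synthase, was at 15.9, 15.9 and 16.3 CPM in the knockout libraries, against 36.6, 35.0 and 35.3 CPM in the control libraries (log2 fold change -1.15 ± 0.11, adjusted p = 1.05e-07). Mvk, mevalonate kinase, was at 8.21, 9.17 and 9.88 CPM in knockouts and 26.0, 27.1 and 20.9 CPM in controls (log2 fold change -1.45 ± 0.14, adjusted p = 1.29e-07). These 3 enzymes act at successive stages between mevalonate and lanosterol, and no knockout library reached a control. Fdft1, squalene synthase, was at 32.9, 32.6 and 36.2 CPM in knockouts and 69.1, 75.6 and 66.1 CPM in controls (log2 fold change -1.05 ± 0.11, adjusted p = 3.63e-07), and Msmo1, a sterol demethylating oxidase, at 55.7, 51.5 and 67.5 CPM in knockouts and 123, 126 and 136 CPM in controls (log2 fold change -1.14 ± 0.12, adjusted p = 4.35e-07). Hmgcs1, the synthase that supplies HMG-CoA, did not pass the test, at 97.4, 96.9 and 87.0 CPM in knockouts and 87.9, 90.3 and 101 CPM in controls (adjusted p = 0.937).

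Genes of cell division were lower. Of 26 tested, 22 fell and 0 rose, with a median of -1.46 (20 and 0, median -1.26, after length correction). Cdk1, the kinase of mitotic entry (mm10 chr10:69335146-69352938, minus strand), was at 5.89, 8.04 and 5.10 CPM in the knockout libraries, against 29.0, 26.0 and 28.2 CPM in the control libraries (log2 fold change -2.11 ± 0.20, adjusted p = 1.08e-07). Cenpa, the centromeric histone, was at 7.59, 8.14 and 5.75 CPM in the knockout libraries, against 27.8, 27.5 and 26.8 CPM in the control libraries (log2 fold change -1.92 ± 0.17, adjusted p = 4.38e-08). Cdc20, an activator of the anaphase-promoting complex, was at 12.7, 8.19 and 9.23 CPM in knockouts and 30.9, 37.5 and 43.5 CPM in controls (log2 fold change -1.89 ± 0.17, adjusted p = 6.29e-08). Tyms, thymidylate synthase of DNA replication, and Ccnb1, cyclin B1, changed by -1.50 ± 0.15, adjusted p = 1.95e-07, and -1.84 ± 0.20, adjusted p = 4.22e-07. Levels of these 5 genes were low in both genotypes, from 5.10 to 43.5 CPM, and the groups did not overlap for any of them.

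Genes induced by glucocorticoids were higher. Of 16 tested, 11 rose and 1 fell, with a median of 1.16 (12 and 1, median 1.32, after length correction). Angptl4, an inhibitor of lipoprotein lipase, was at 227, 322 and 224 CPM in the knockout libraries, against 77.8, 70.4 and 60.7 CPM in the control libraries (log2 fold change 1.89 ± 0.16, adjusted p = 4.67e-08). Mt1 and Mt2, metallothioneins, rose by 1.93 ± 0.20, adjusted p = 6.08e-07, and by 2.54 ± 0.32, adjusted p = 2.58e-06. Per2, a clock gene, was at 21.0, 30.8 and 27.2 CPM in knockouts and 5.46, 3.83 and 4.31 CPM in controls (log2 fold change 2.55 ± 0.24, adjusted p = 9.88e-08). Nr3c1, the glucocorticoid receptor itself, was at 80.0, 74.5 and 78.3 CPM in knockouts and 38.9, 48.6 and 42.4 CPM in controls (log2 fold change 0.84 ± 0.10, adjusted p = 1.08e-06), and was not called with the longest transcript as the measure of length (0.14). Of 16 clock genes 9 rose and 0 fell, with a median of 0.67 (6 higher and 1 lower, median 0.44, after length correction). Cry2 and Cry1, repressors of the clock, rose by 1.09 ± 0.12, adjusted p = 7.51e-07, and by 0.82 ± 0.18, adjusted p = 0.00110, and Nr1d2, a nuclear receptor of the clock, by 0.98 ± 0.19, adjusted p = 2.69e-04. Per3 was at 6.25, 16.5 and 15.8 CPM in knockouts and 3.70, 3.72 and 2.10 CPM in controls (log2 fold change 2.0 ± 0.39, adjusted p = 3.95e-04). Of 17 immediate early genes, which respond within minutes to handling of cells as well as to signals, 6 rose and 0 fell, with a median of 0.24 (0.00 with library totals alone). With length correction 6 were higher in the fit of all libraries and 13 in that of only the 6. Maff, a small Maf factor, was at 33.7, 43.8 and 57.0 CPM in knockouts and 14.2, 17.2 and 15.5 CPM in controls (log2 fold change 1.51 ± 0.20, adjusted p = 4.33e-06), and Fosb, an AP-1 factor, at 911, 946 and 1023 CPM in knockouts and 441, 414 and 461 CPM in controls (log2 fold change 1.13 ± 0.23, adjusted p = 6.89e-04). The sources used here do not give the time of day at which cells were collected.

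Stress genes moved in both directions, although the members named here from the chaperone, ATF4 and p53 lists all fell. Of 21 heat shock and endoplasmic reticulum chaperone genes 9 fell and 2 rose, with a median of -0.11 (8 lower and 6 higher, median 0.01, after length correction). Hspe1, a mitochondrial chaperonin, Pdia6, a disulfide isomerase, and Xbp1, a factor of the unfolded protein response, fell, with log2 fold changes of -1.26, -0.84 and -0.79. Values in this list ranged from -1.26 to 1.55. Of 19 ATF4 targets and amino acid supply genes 10 fell and 4 rose, with a median of -0.77. Chac1, which degrades glutathione, was at 9.92, 10.8 and 12.9 CPM in the knockout libraries, against 29.2, 31.0 and 31.5 CPM in the control libraries (log2 fold change -1.46 ± 0.13, adjusted p = 5.53e-08). Aldh18a1, an enzyme of proline synthesis, was at 144, 129 and 125 CPM in knockouts and 222, 238 and 214 CPM in controls (log2 fold change -0.76 ± 0.08, adjusted p = 4.55e-07). Of 18 genes of p53 and apoptosis 6 fell and 4 rose, with a median of -0.04 (4 higher and 3 lower, median 0.07, with DESeq2's size factors, 2 and 7 with library totals alone, and 6 and 4, median 0.20, after length correction). Ccng1, cyclin G1, was at 76.8, 68.2 and 70.2 CPM in knockouts and 314, 247 and 297 CPM in controls (log2 fold change -1.99 ± 0.13, adjusted p = 3.36e-09). Of 12 complement genes 4 rose and 0 fell. C1ra, a protease of the first complement component, rose by 0.99 ± 0.11, adjusted p = 9.71e-07. Interferon response genes did not move as a group, with 1 of 16 higher, 1 lower and neither call left after length correction.

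**Figure D3:**
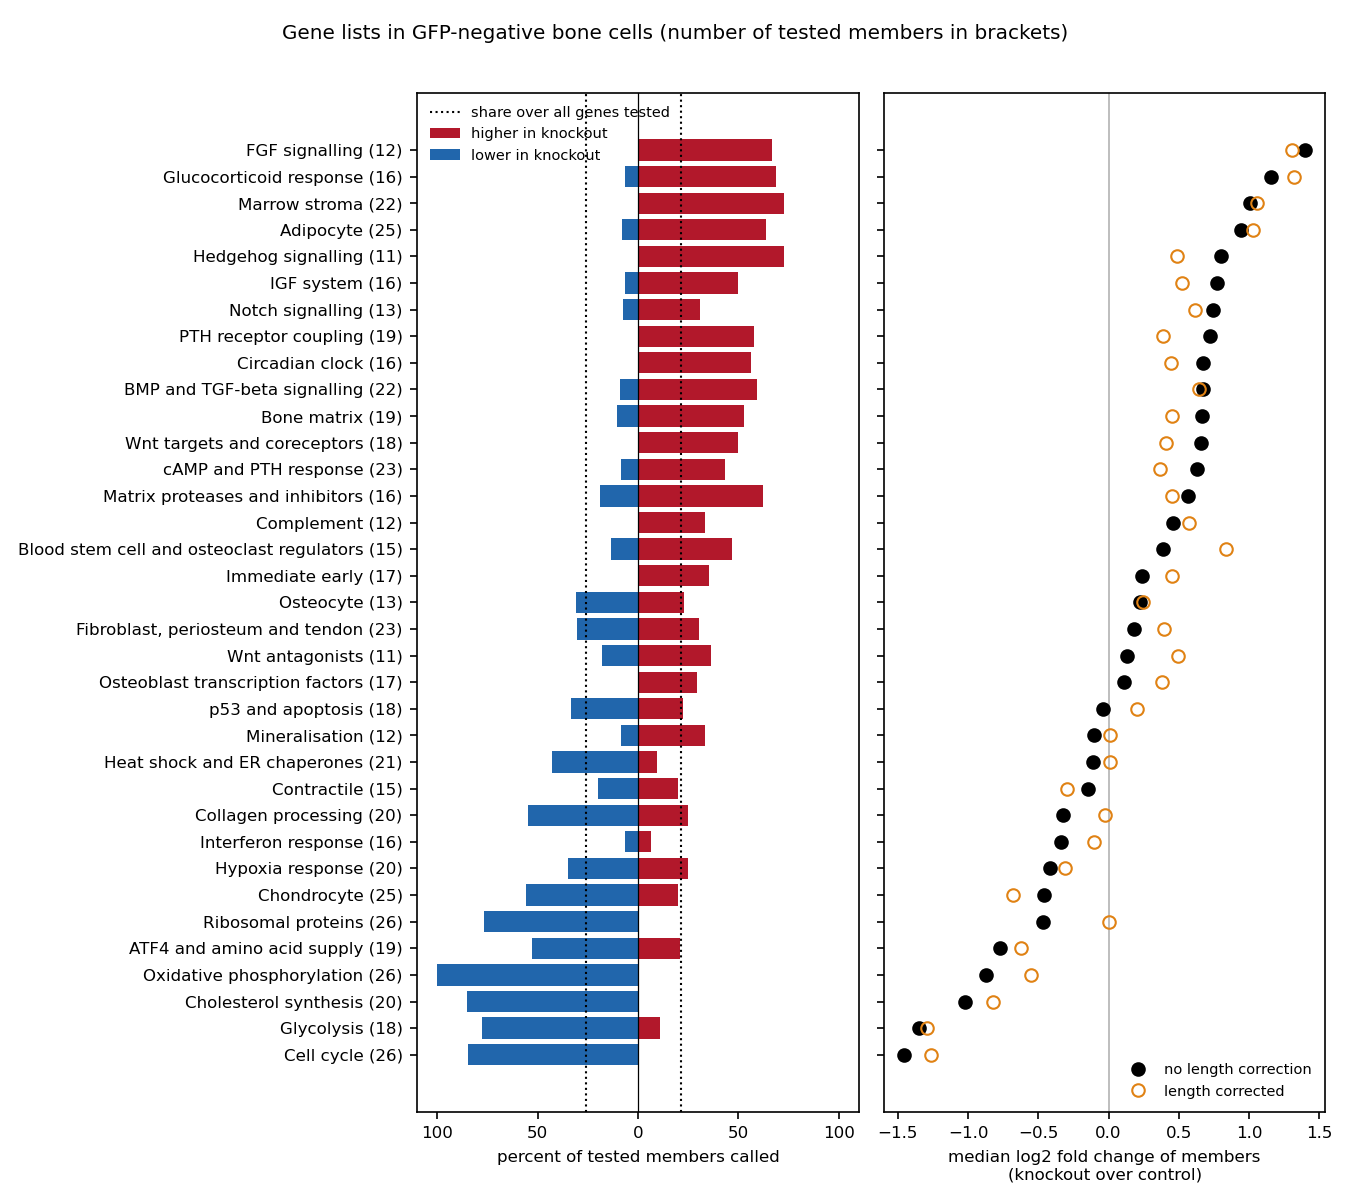
The 35 gene lists ordered by median log2 fold change of knockout over control. The left panel gives the percent of tested members called higher (right) and lower (left), with dotted lines at 21.5% and 25.7%, the shares over all genes tested, and the right panel the medians without and with length correction, from 1.40 for FGF signalling to -1.46 for the cell cycle.

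Among single genes the largest rises were of genes nearly absent from controls. By the naming rule, which asks for a call with and without length correction, a mean of 5 CPM where the gene was higher, and groups without overlap, 1899 rises and 2318 falls were eligible, and the 12 largest of each are described. Of the rises, Cap1, an actin-binding protein, was the most abundant in knockouts, at 84.6, 81.1 and 81.7 CPM in the knockout libraries, against 7.84, 8.92 and 5.51 CPM in the control libraries (log2 fold change 3.47 ± 0.45, adjusted p = 2.13e-05). Fhl3, a LIM domain protein, was at 5.42, 4.17 and 5.55 CPM in knockouts and 0.439, 0.157 and 0.120 CPM in controls (log2 fold change 4.40 ± 0.52, adjusted p = 5.76e-07). Zbtb16, the zinc finger factor PLZF, known as a target of glucocorticoids, was at 10.8, 10.7 and 2.84 CPM in the knockout libraries, against 0.878, 0.629 and 0.539 CPM in the control libraries (log2 fold change 3.61 ± 0.53, adjusted p = 1.91e-05). Slc22a3, a transporter of organic cations, was at 7.02, 7.52 and 7.49 CPM in knockouts and 0.439, 0.682 and 0.240 CPM in controls (log2 fold change 3.97 ± 0.95, adjusted p = 0.00239). Acacb, an acetyl-CoA carboxylase, was at 5.32, 7.78 and 6.0 CPM in knockouts and 0.564, 0.157 and 0.479 CPM in controls (log2 fold change 4.02 ± 0.44, adjusted p = 4.81e-07). Lgr5, a receptor for R-spondins, was at 3.31, 8.76 and 3.55 CPM in knockouts and 1.07, 0.157 and 0.180 CPM in controls (log2 fold change 3.55 ± 0.69, adjusted p = 3.03e-04). The controls of these genes, apart from Cap1, rest on few reads, so the size of the fold change is uncertain although the groups did not overlap. Tecpr2, with 0.568, 7.21 and 7.62 CPM in knockouts and 0.0627, 0.315 and 0.539 CPM in controls, had 1 knockout library near the controls. Sfmbt2, Mapkbp1 and Prx rose by 3.59, 3.47 and 3.29, and Pappa2 and Timp4 are given above.

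The largest falls included cartilage and secreted proteins. C1qtnf3, a secreted relative of the adiponectin family that is made in cartilage (mm10 chr15:10952332-10980150, plus strand), was at 153, 163 and 146 CPM in the knockout libraries, against 1437, 1037 and 1361 CPM in the control libraries (log2 fold change -3.05 ± 0.13, adjusted p = 2.81e-11). It was the most abundant gene among the 12 falls, and its groups were far apart. Kctd4 was at 2.74, 1.49 and 0.904 CPM in knockouts and 16.5, 13.4 and 16.6 CPM in controls (log2 fold change -3.13 ± 0.28, adjusted p = 3.78e-08), and Rlbp1, a carrier of retinal, at 1.14, 0.773 and 0.710 CPM in knockouts and 7.34, 8.50 and 9.46 CPM in controls (log2 fold change -3.25 ± 0.30, adjusted p = 3.11e-08). R3hdml was at 5.32, 3.14 and 2.71 CPM in knockouts and 29.4, 36.3 and 22.8 CPM in controls (log2 fold change -2.97 ± 0.25, adjusted p = 3.11e-08), Tnfrsf13c, a receptor for BAFF, at 0.620, 0.360 and 0.646 CPM in knockouts and 5.83, 3.78 and 7.61 CPM in controls (log2 fold change -3.40 ± 0.43, adjusted p = 2.50e-06), and Ninj2, an adhesion protein, at 0.620, 0.927 and 0.904 CPM in knockouts and 5.39, 7.34 and 8.03 CPM in controls (log2 fold change -3.09 ± 0.34, adjusted p = 3.12e-07). Il17b, a cytokine of the interleukin-17 family, and Atp6v0c, a subunit of the vacuolar proton pump, fell, with log2 fold changes of -3.04 and -2.90. Foxo6os, annotated as an antisense transcript, had the lowest log2 fold change of the 12, -4.39, but without a stated strand setting its reads cannot be told from those of an overlapping gene. Sfrp5, Ucma and Slc16a3 are given above.

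Summed markers of other cell types were far below the bone matrix sum in all 6 libraries, with some differences by genotype. Of 11 tested erythroid markers 1 rose and 0 fell, and their sum was 61.4 to 119 CPM in knockouts and 39.2 to 561 CPM in controls, with control library 2 at the top. No neutrophil or macrophage marker was called, among 11 and 12 tested. Neutrophil markers summed to 11.5 to 66.5 CPM in knockouts and 9.03 to 167 CPM in controls, again with control library 2 highest. Osteoclast markers summed to 249 to 281 CPM in knockouts and 129 to 181 CPM in controls, without overlap. Of the 10 osteoclast markers 5 were tested, of which 1 rose and 2 fell, while Calcr, Atp6v0d2, Dcstamp, Oscar and Tnfrsf11a were below the filter on low counts. The sums of B cell markers were 81.9 to 88.0 CPM in knockouts and 48.5 to 59.7 CPM in controls. That list holds Ebf1, which stromal cells also express, while Vpreb1, Pax5 and Rag1 were below the filter. Schwann and neural markers were lower, at 31.5 to 43.3 CPM in knockouts and 58.1 to 68.3 CPM in controls, with 2 of 8 lower, and skeletal muscle markers were at 10.9 to 20.6 CPM in knockouts and 24.8 to 26.6 CPM in controls. Megakaryocyte markers summed to 3.55 to 6.15 CPM in knockouts and 1.47 to 1.80 CPM in controls, T and NK cell markers to 1.09 to 3.71 CPM in knockouts and 0.958 to 2.05 CPM in controls, and endothelial markers to 9.76 to 27.7 CPM in knockouts and 9.52 to 17.7 CPM in controls. Where these sums moved with genotype, their part in the gene groups above was not tested.

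**Figure D4:**
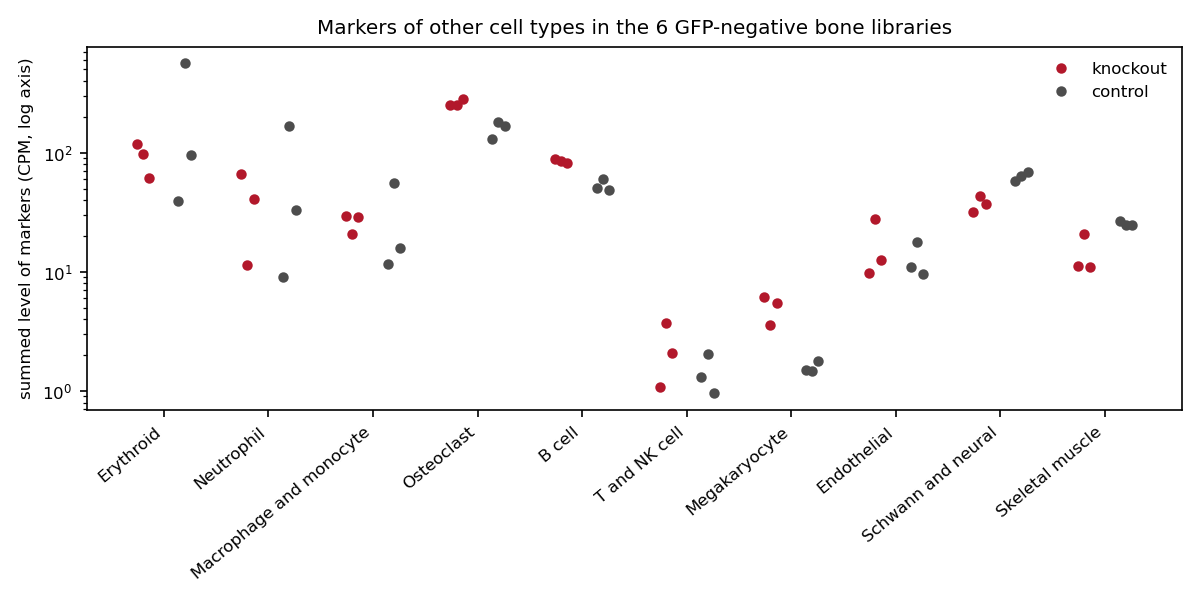
Summed level of the marker genes of 10 other cell types in each of the 6 libraries (y axis, TMM-scaled CPM, log axis), knockout left of control. Osteoclast, B cell and megakaryocyte sums are higher in all 3 knockout libraries and Schwann and muscle sums lower, while erythroid and neutrophil sums are highest in control library 2.

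The knockout effect was compared with that in the other subsets by the difference of the log2 fold changes, effect in GFP-negative bone cells minus effect in the other subset. Each subset has its own knockouts and controls, while both differences share the 6 libraries of GFP-negative bone cells. Against GFP-positive bone cells 944 genes differed (6.08%), 172 with a higher effect in GFP-negative cells (1.11%) and 772 with a lower one (4.98%). That split moved with scaling, to 278 and 457 with library totals alone, to 548 and 872 with DESeq2 and to 690 and 473 with library totals without the 10 most abundant genes, a setting added after the data were seen. Against marrow stromal cells 1209 genes differed (7.79%), 696 with a higher effect (4.49%) and 513 with a lower one (3.31%). With libraries of 1 genotype and number as a block, 1400 genes differed from GFP-positive cells (275 higher and 1125 lower) and 1356 from marrow (834 and 522). Scaling moved the split against marrow too. With library totals alone the counts were 408 higher and 3327 lower, and without the 10 most abundant genes 1140 and 273.

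The effect on cholesterol synthesis and cartilage genes was lower in GFP-negative than in GFP-positive bone cells. For 18 of 20 cholesterol genes the effect was lower and for 0 higher, with a median difference of -1.45. In GFP-positive cells 12 of them rose and 3 fell, with a median log2 fold change of 0.42, where 51.3% of all genes were called, 26% higher and 25.3% lower. Hmgcs1 showed the smallest p of all genes for this difference, -1.62 ± 0.12, adjusted p = 9.88e-07. It was at 842, 935 and 821 CPM in knockouts and 258, 303 and 278 CPM in controls of the GFP-positive subset, and its groups overlapped in the GFP-negative one. Lss changed by -1.15 in GFP-negative cells and 0.47 ± 0.09 in GFP-positive cells (difference -1.63 ± 0.14, adjusted p = 2.31e-06). For 20 of 25 chondrocyte genes the effect was lower and for 0 higher, with a median difference of -1.55. Col9a3, a chain of cartilage collagen IX, was at 1625, 1415 and 1562 CPM in knockouts and 2357, 2602 and 3204 CPM in controls in the GFP-negative subset and at 22390, 19000 and 18620 CPM in knockouts and 8908, 9349 and 10510 CPM in controls in the GFP-positive one (difference -1.89 ± 0.17, adjusted p = 2.31e-06). Of 26 cell cycle genes 11 had a lower effect, with a median difference of -1.07. Marrow stroma genes gave no call of a different effect, with 0 higher and 0 lower of 22, and the respiratory chain genes gave 0 and 0 of 26.

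Other single genes with the smallest p against GFP-positive cells were these. Bdkrb1, a bradykinin receptor, changed by -0.77 in GFP-negative cells and by 1.45 ± 0.12 in GFP-positive cells (difference -2.22 ± 0.21, adjusted p = 2.31e-06), and its call in GFP-negative cells ended after length correction (-0.28 ± 0.16, adjusted p = 0.188). Enpp2, autotaxin, which makes lysophosphatidic acid, did not pass the test in GFP-negative cells, with a log2 fold change of -0.24 (adjusted p = 0.0603), and rose in GFP-positive cells by 1.40 ± 0.10 (difference -1.64 ± 0.14, adjusted p = 2.31e-06), but it was called lower in GFP-negative cells after length correction (-0.41 ± 0.10, adjusted p = 0.00336). Hist1h2bc, a histone gene of a near-identical family and therefore uncertain, changed by -0.92 in GFP-negative cells and by 1.53 ± 0.14 in GFP-positive cells (difference -2.45 ± 0.21, adjusted p = 2.31e-06), and its call in GFP-negative cells also ended after length correction (-0.42 ± 0.16, adjusted p = 0.0510).

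Against marrow stromal cells, bone matrix genes stood out on the other side. For 14 of 19 the effect was higher in GFP-negative bone cells and for 0 lower, with a median difference of 1.45. In marrow 3 of them rose and 12 fell, with a median log2 fold change of -0.79, where 47.9% of all genes were called, 23.1% higher and 24.8% lower. The effect was also higher for 7 of 12 mineralisation, 7 of 13 osteocyte and 8 of 22 stroma genes, and lower for 0 in each. Among 16 protease and inhibitor genes it was higher for 8 and lower for 1. It was lower for 14 and higher for 3 of 25 chondrocyte genes, lower for 9 and higher for 1 of 18 glycolytic genes. Of 25 adipocyte genes the effect was lower for 8 and higher for 0. Mmp2, a gelatinase, changed by 0.45 in GFP-negative bone cells and by -1.53 ± 0.13 in marrow (difference 1.98 ± 0.17, adjusted p = 4.36e-06). Its level was 2763, 2498 and 2543 CPM in knockouts and 1831, 1801 and 2078 CPM in controls in GFP-negative bone cells and 309, 345 and 239.6 CPM in knockouts and 721, 939.7 and 922 CPM in controls in marrow. Itgb5, an integrin chain, changed by 0.68 in GFP-negative bone cells and by -1.01 ± 0.11 in marrow (difference 1.69 ± 0.16, adjusted p = 5.46e-06). Bnip3 changed by -1.88 in GFP-negative bone cells and by 0.46 ± 0.14 in marrow (difference -2.34 ± 0.19, adjusted p = 3.76e-06), and the glycolytic Aldoa, aldolase A, by -0.81 in GFP-negative bone cells and by 0.64 ± 0.09 in marrow (difference -1.45 ± 0.12, adjusted p = 3.76e-06). Sc5d, a sterol desaturase, changed by -0.74 in GFP-negative bone cells and by 0.91 ± 0.11 in marrow (difference -1.65 ± 0.15, adjusted p = 5.46e-06), and Arxes2 by -1.05 in GFP-negative bone cells and by 2.14 ± 0.20 in marrow (difference -3.19 ± 0.29, adjusted p = 5.46e-06). All 12 genes named for such a difference kept their call and direction under every alternative run. The rule that named them already asked for a call in the same direction after length correction, so that part was fixed by the choice.

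**Figure D5:**
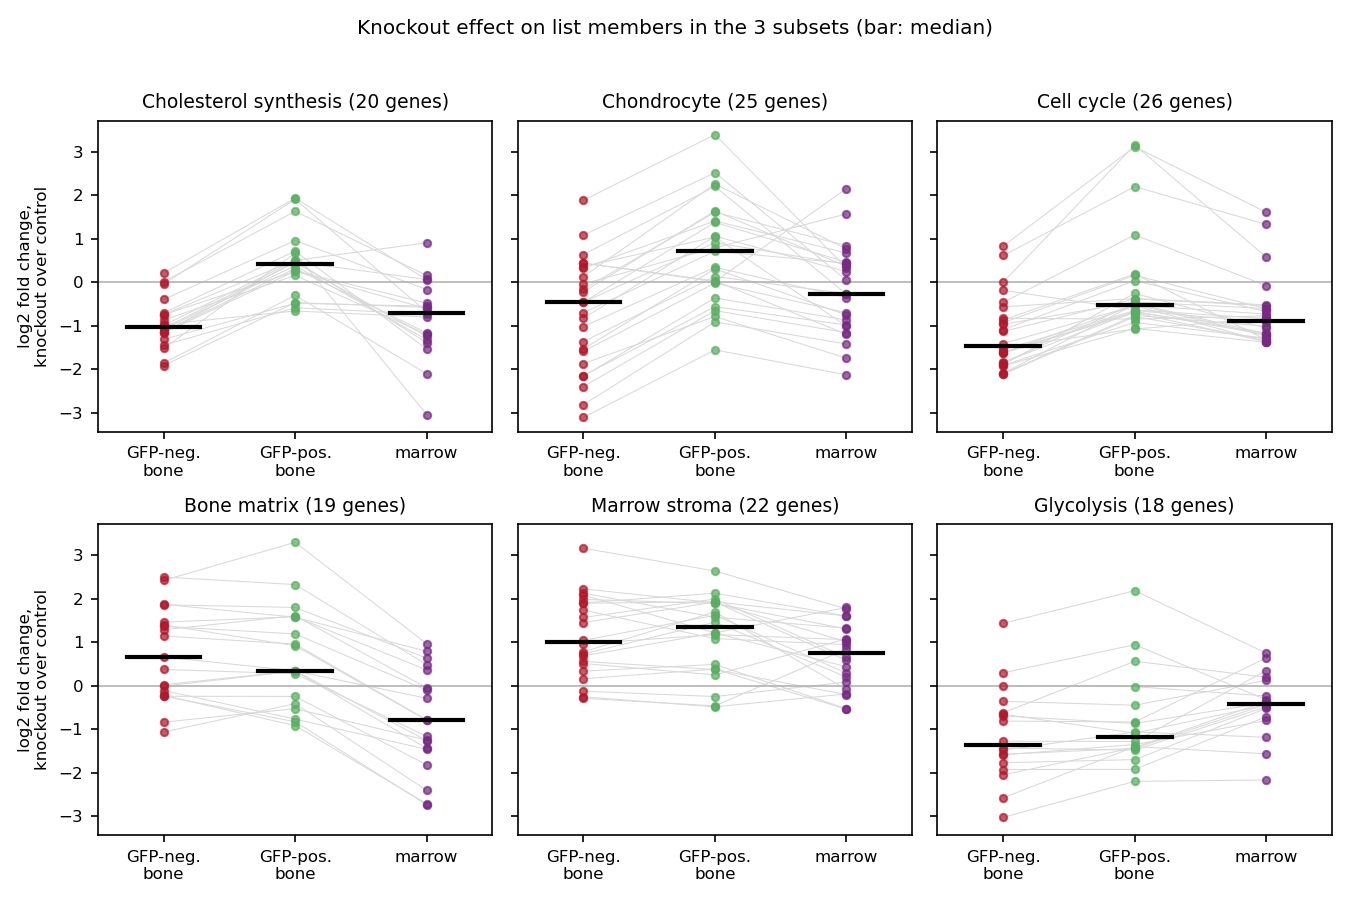
Log2 fold change of knockout over control for each tested member of 6 gene lists in GFP-negative bone cells, GFP-positive bone cells and marrow stromal cells, with grey lines joining a gene and bars at the median. Cholesterol and chondrocyte medians are below 0 in GFP-negative cells (-1.02 and -0.46) and above 0 in GFP-positive cells (0.42 and 0.71), and the bone matrix median is below 0 only in marrow (-0.79).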

How the data were processed

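RNA was counted in 18 libraries, of which the 6 of GFP-negative bone cells are described. Each deposited file holds unnormalised counts of reads over the exons of a gene, with the merged exon length of that gene, as featureCounts writes them per the file headers. STAR, featureCounts, DESeq2 and the build mm10 are named, without versions, in the submitters' processing notes. RNA was taken with a micro-scale column kit and amplified with low-input SMART-Seq v4 chemistry, per the labels' protocols. Sources used here give neither the strand setting nor the treatment of reads with several matches. They also leave unsaid whether each library is a separate animal, and p-values then reflect only how far these samples spread, which may be technical. Replicates differed beyond sampling noise in every pair (14.1 to 45.2 as chi-square over its degrees of freedom), so each was kept as its own sample.

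Groups came from the titles. With edgeR 4.0.16 in R 4.3.3, all 18 libraries were fitted with a mean per group (12 residual degrees of freedom), so that the 6 groups share 1 estimate of spread. The filterByExpr step (minimum count 10, minimum total 15) left 15516 of 54446 gene IDs. Libraries were scaled by TMM and tested by the robust quasi-likelihood F-test, two-sided, adjusted by Benjamini-Hochberg over all genes, with a threshold of 0.05. The SE is the log2 fold change over the square root of F, an approximation that is poor where a group has few reads. Length correction fitted a lowess curve (span 0.3) of each library's log2 CPM deviation on log2 length and used it as an offset. Gene coordinates are from the deposited files, gene types and longest transcripts from GENCODE M21, and promoters from RefSeq. Symbols were matched for 54409 IDs, 53229 of them with the same version. The fit was tested on simulated data with known fold changes.

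The text names Pth1r, the 12 largest rises and falls that were called with and without length correction, at 5 CPM or more and without overlap, at most 5 members per list, by smallest p, and 6 genes per difference between subsets. Those 6 have the smallest p among genes called in the same direction with and without length correction and at 5 CPM or more. Other genes are marked where they appear. Members, lists and the rule were chosen with earlier results of these data known. Alternatives were scaling, filtering, length correction, DESeq2 1.42.0, fewer libraries and a replicate block.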

Additional observations from a re-analysis of the deposited data

Results flagged for a closer look

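For 12 genes the knockout effect in GFP-negative bone cells differed from that in another subset by the test of the difference itself. They have the smallest p among named genes at 5 CPM or more that were called with and without length correction in the same direction. Values are differences of log2 fold changes, GFP-negative bone minus the other subset (edgeR quasi-likelihood test, adjusted over all genes).

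Against GFP-positive bone cells the differences were -1.62 for Hmgcs1, -2.22 for Bdkrb1, -2.45 for Hist1h2bc, -1.64 for Enpp2, -1.63 for Lss and -1.89 for Col9a3. Bdkrb1, Hist1h2bc, Lss and Col9a3 fell in GFP-negative and rose in GFP-positive cells. The calls of Bdkrb1 and Hist1h2bc in GFP-negative cells ended after length correction, at -0.28 ± 0.16, adjusted p = 0.188 and -0.42 ± 0.16, adjusted p = 0.0510. Hmgcs1 and Enpp2 rose in GFP-positive cells, by 1.63 ± 0.09 and 1.40 ± 0.10, and did not pass the test in GFP-negative cells, where their log2 fold changes were 0.01 (adjusted p = 0.937) and -0.24 (adjusted p = 0.0603). After length correction Enpp2 was called lower there, at -0.41 ± 0.10, adjusted p = 0.00336.

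Against marrow stromal cells the differences were -2.34 for Bnip3, -1.45 for Aldoa, 1.98 for Mmp2, -3.19 for Arxes2, -1.65 for Sc5d and 1.69 for Itgb5. All 6 changed in opposite directions in the 2 subsets, and Mmp2 and Itgb5 were the ones higher in knockout GFP-negative bone cells.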

How the results depend on the processing

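With counts of 7315 called genes as reported, the alternatives gave 5713 to 7620, and 6417 to 6774 without 1 library. The lower end of the first range came from the replicate block with length correction, and the replicate block alone gave 6945 calls. Same-numbered libraries of knockout and control did not deviate together (correlations -0.007 to 0.018), so shared numbers were not treated as pairs. Across subsets same-numbered knockout libraries did deviate together, at 0.149 to 0.206 with GFP-positive bone and 0.126 to 0.177 with marrow, but control libraries less so, at 0.032 to 0.119 and 0.055 to 0.092, and libraries numbered 3 had low Y-linked levels in every group. The differences between subsets were fitted without this block, and the counts with it are given below. Without both libraries numbered 3, 5984 genes were called. The cause of each change below was not tested unless stated.

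For Pth1r the log2 fold change of -0.56 ended its call at -0.28 after length correction (adjusted p = 0.0861), at -0.24 with the longest transcript (0.124) and at -0.29 with the replicate block and length correction (0.10). With length correction in only the 6 libraries it was still called, at -0.30 (0.0467). Leaving out 1 library gave -0.69 to -0.47 (0.000436 to 0.0118). Genes with a different effect from GFP-positive cells numbered 944 as reported, 1420 with DESeq2, 1400 with the replicate block and 673 to 858 without 1 library. Those with a different effect from marrow numbered 1209, 3735 with library totals alone, 1356 with the replicate block and 914 to 1265 without 1 library.

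Of 190 named genes that were called, 175 kept call and direction after length correction and 168 with the longest transcript. The largest rises and falls among them were named only if called with and without length correction, and list members by smallest p. The share kept after length correction was thus partly fixed by the choice, and over all 7315 called genes it was 69.15%. Of the same 190 genes, 182 kept call and direction with library totals alone, 189 with DESeq2 and 185 to 189 without 1 library. Direction turned for Creb1 (-0.031) and the contractile kinase Mylk (-0.069) with the longest transcript, and for Cald1 with length correction (-0.20), the same in only the 6 libraries (-0.21) and with the replicate block (-0.20).

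Depth limits genes below about 0.2 CPM, where a library holds 3 reads or fewer.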
